A study of Mus musculus with 17 samples.

Results

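Mitochondrial chaperones fold imported and newly made proteins inside the organelle, and mitochondrial AAA proteases degrade those that are damaged, misfolded or unassembled. The main matrix chaperones are the Hsp60 and Hsp10 chamber and mitochondrial Hsp70, and the main matrix proteases are Lon and ClpXP. The inner membrane holds proteases that face the matrix (m-AAA) or the intermembrane space (i-AAA). When mitochondrial proteins are out of balance, mammalian cells can raise transcripts of this machinery in a program called the mitochondrial unfolded protein response, and the transcription factors Atf4, Atf5 and Ddit3 (Chop) are its best known regulators. The heart is rich in mitochondria and depends on oxidative phosphorylation for most of its energy.

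The transcripts of 10 such genes were followed in whole hearts, chosen by gene symbol from a table of 56748 genes. They are the chaperones Hspd1, Hspe1, Hspa9 and Trap1, the matrix proteases Lonp1, Clpp and Clpx (the unfoldase partner of Clpp), and the inner membrane proteases Afg3l2, Spg7 and Yme1l1. All 10 members passed the filter on low counts, which kept 16195 genes. Poly(A)-selected RNA had been sequenced from 17 hearts of mice aged 12 to 16 months. Of these, 9 came from hMut mice, which are homozygous for an inducible allele of Polg, the mtDNA polymerase (genotype Polg iMut/iMut; +/Ckmm-cre). Cre under the muscle creatine kinase promoter (active in heart and skeletal muscle) removes a wild-type cassette in their cardiomyocytes and switches on a polymerase without proofreading, so that mtDNA mutations build up there, and other cells of the heart are left to make the wild-type enzyme. The other 8 hearts came from control mice (Ctrl), whose alleles at Polg and cre are not given in the sources used here. The labels state one genotype per library and number the hearts within each group, and those numbers name the replicates below.

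Total counts lay between 32915159 and 46486964 per heart, and the members held between 1195 (Clpp) and 40931 (Hspa9) counts in a single heart. Values are CPM (counts scaled to a common library size with TMM factors), and a log2 fold change compares hMut with Ctrl. Polg itself, the targeted gene, was at 27.1 to 47.2 CPM in Ctrl (median 32.0) and 47.1 to 65.1 CPM in hMut (median 59.6). Genes encoded in mtDNA took 23.5% to 30.9% of counts in Ctrl and 15.9% to 23.0% in hMut. Summed markers of cardiomyocytes (8 genes, none at 0 counts in any heart) were at 38457 to 46980 CPM in Ctrl and 29140 to 45670 CPM in hMut, and 0 of the 8 passed the test. Those of fibroblasts (6 genes, 0 called) were at 654 to 752 and 661 to 1405 CPM, and those of myeloid cells (8 genes, 0 called) at 230 to 350 and 291 to 1271 CPM. Both upper ends belong to hMut replicate 6, and hMut replicate 9 came next, with 1121 CPM of fibroblast and 640.2 CPM of myeloid markers. The same pair had the lowest sums of cardiomyocyte markers, 31365 CPM in hMut replicate 6 and 29140 CPM in hMut replicate 9. Endothelial markers (701 to 891 and 777 to 1058 CPM, 1 of 5 called higher, Kdr), smooth muscle and pericyte markers (753 to 1016 and 705 to 1100 CPM, 1 of 4 called higher, Pdgfrb) and lymphoid markers (1.59 to 46.4 and 3.92 to 55.9 CPM, 0 of 8 called) overlapped between the groups. In the 4 lists with 0 calls, the smallest p belonged to Myh6 for cardiomyocytes (log2 fold change -0.34, adjusted p = 0.0601, edgeR), Postn for fibroblasts (1.36, adjusted p = 0.0512), Cd14 for myeloid cells (0.56, adjusted p = 0.0683) and Cd3e for lymphoid cells (2.08, adjusted p = 0.122). Cd3e was low, with medians of 0.253 CPM in Ctrl and 0.406 CPM in hMut. Only 1 hMut heart, at 8.60 CPM, lay above every Ctrl heart in Cd3e. At an unadjusted p under 0.05 (edgeR) were 5 of 8 cardiomyocyte, 6 of 6 fibroblast, 6 of 8 myeloid and 4 of 8 lymphoid markers. The endothelial count was 3 of 5, and that of smooth muscle and pericytes 2 of 4. Log2 fold changes were above 0 for 0 of 8 cardiomyocyte, 6 of 6 fibroblast, 8 of 8 myeloid and 4 of 8 lymphoid markers. Of all tested genes, 4.62% were called after adjustment. That share is not the background for the unadjusted counts, for which far more genes pass. A gene at an unadjusted p of 0.0548 (Spg7, edgeR) ranked 4399th by p among the 16195 tested genes. In whole tissue, fewer cells of a type and less RNA per cell cannot be told apart, and the part of cell makeup in the results below was not tested.

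Of the 10 members, Lonp1 was higher in hMut hearts and 0 were lower, where 4.62% of all tested genes passed the same test in either direction and 3.48% as higher. The threshold was an adjusted p under 0.05 in the quasi-likelihood test of edgeR, adjusted by Benjamini-Hochberg over all 16195 genes. The 9 other members had log2 fold changes from -0.14 to 0.09, with 3 above 0 and 6 below it. Over the 10 members the median log2 fold change was -0.02, beside 0.00 over all tested genes. At an unadjusted p under 0.05 (edgeR), the count was likewise 1 of 10. The shares above are not the background for this count, since far more genes pass without adjustment. Spg7, the member next in order at an unadjusted p of 0.0548 (edgeR), ranked 4399th by p among the 16195 genes.

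**Figure D1:**
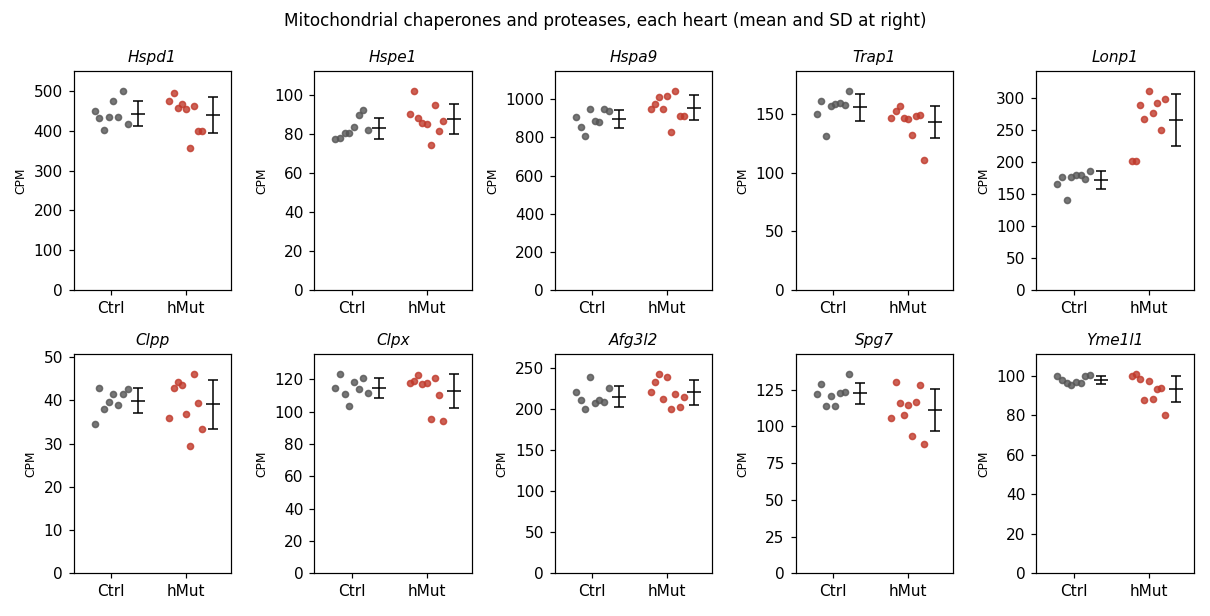
Normalized expression (CPM, axes from 0) of the 10 members in each of the 8 Ctrl (grey) and 9 hMut (red) hearts, with the mean and SD of each group at the right of its points. Lonp1 is the member whose groups do not overlap, with every hMut heart at 200.9 CPM or more and every Ctrl heart at 185.4 CPM or less.

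Lonp1 encodes the Lon protease of the matrix, which removes oxidized and misfolded proteins and also binds mtDNA. Its gene (ENSMUSG00000041168) occupies 56921297 to 56933887 of chromosome 17 in GRCm39, minus strand. Lonp1 stood at 140.9 CPM in the lowest Ctrl heart, at a median of 175.7 CPM and at 185.4 CPM in the highest. In hMut it was at 200.9 CPM in the lowest heart, at a median of 276.5 CPM and at 310.9 CPM in the highest. All 9 hMut hearts thus lay above all 8 Ctrl hearts, which holds for 0.543% of tested genes. Group means were 171.8 ± 13.7 CPM in Ctrl (SD, n = 8) and 264.9 ± 40.2 CPM in hMut (SD, n = 9). Its log2 fold change of 0.62 had a standard error of 0.09 (adjusted p = 0.000371, edgeR), a rise of 54.2% with a 95% interval from 36.1% to 74.7%. Among all tested genes it ranked 36th by p.

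The hMut hearts were not alike in Lonp1. Replicates 1 and 2 were at 201.3 and 200.9 CPM, close above the highest Ctrl heart. The other 7 were between 250.1 and 310.9 CPM. The highest hMut heart held 1.55 times as much Lonp1 as the lowest. Lonp1 had the largest coefficient of variation of the 10 members in hMut, 15.2%, against 7.99% in Ctrl. Clpp followed with 14.3% in hMut and 7.10% in Ctrl.

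Per kilobase of the gene length given with the counts, the order of the members in Ctrl hearts began with Hspa9 (207.8 ± 11.4 CPM per kilobase, SD, n = 8) and Hspd1 (167.7 ± 11.9). The order depends on that length, which was 9874 bases for Afg3l2, 8009 for Yme1l1 and 4374 for Lonp1. How well it matches the transcripts made in these hearts was not tested. Before this scaling, Afg3l2 averaged 215.7 CPM in Ctrl and Lonp1 171.8 CPM. Trap1 (60.4 ± 4.42) and Hspe1 (56.2 ± 3.61) came next, followed by Lonp1 (39.3 ± 3.14), Clpx (32.8 ± 1.80), Clpp (32.6 ± 2.32) and Spg7 (27.1 ± 1.62). Afg3l2 (21.8 ± 1.27) and Yme1l1 (12.2 ± 0.256) were the lowest. The Ctrl ranges of 5 neighbouring pairs overlapped, namely Hspa9 with Hspd1, Trap1 with Hspe1, Lonp1 with Clpx, Clpx with Clpp and Clpp with Spg7. In hMut hearts Lonp1 was at 60.6 ± 9.18 CPM per kilobase (SD, n = 9), beside 55.6 ± 5.35 for Trap1 and 59.4 ± 5.36 for Hspe1. Within a heart, Lonp1 exceeded Trap1 per kilobase in 0 of 8 Ctrl and 6 of 9 hMut hearts, and Hspe1 in 0 of 8 and 7 of 9.

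The chaperones did not pass the test. Hspa9, mitochondrial Hsp70 or mortalin, pulls proteins through the inner membrane and folds them, and it was the most abundant member per kilobase. Its gene (ENSMUSG00000024359) occupies 35070467 to 35087410 of chromosome 18 in GRCm39, minus strand. It was at 806.2 to 946.7 CPM in Ctrl (median 896.1) and 825.7 to 1044 CPM in hMut (median 948.9). Of the hMut hearts, 6 lay above every Ctrl heart and replicate 6 lay near the lower end of the Ctrl range. Its log2 fold change was 0.09 (95% interval -0.01 to 0.20, adjusted p = 0.249, edgeR), and limma-voom with quality weights called it (0.13, adjusted p = 0.0345).

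Hspd1 (Hsp60) forms the chamber in which matrix proteins fold, and Hspe1 (Hsp10) is its lid. Hspd1 was at 401.6 to 500.2 CPM in Ctrl (median 434.8) and 355.6 to 495.3 CPM in hMut (median 455.7), with a log2 fold change of -0.01 (95% interval -0.14 to 0.12, adjusted p = 0.947, edgeR). Hspe1 was at 77.3 to 92.0 CPM in Ctrl (median 81.1) and 74.1 to 102 CPM in hMut (median 86.6), with a log2 fold change of 0.08 (95% interval -0.04 to 0.20, adjusted p = 0.356, edgeR). Both pairs of groups overlapped over most of their range. Trap1, the mitochondrial member of the Hsp90 family, was at 130.7 to 169.6 CPM in Ctrl (median 158.2) and 111.1 to 157 CPM in hMut (median 146.6). All 9 hMut hearts lay at or below the Ctrl median of Trap1, yet 8 of them were within the Ctrl range, and the log2 fold change was -0.12 (95% interval -0.25 to 0.01, adjusted p = 0.228, edgeR). Trap1 (ENSMUSG00000005981, chromosome 16, 3857835 to 3895691, minus strand) shares 54 bases with Dnase1 on the other strand, which held 70 to 121 counts per heart.

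Hspd1 (ENSMUSG00000025980) and Hspe1 (ENSMUSG00000073676) stand head to head on chromosome 1 of GRCm39. Hspd1 runs on the minus strand from 55116994 to 55127402 and Hspe1 on the plus strand from 55127291 to 55130466, so that 112 bases belong to both. Whether the counting used strand is not given in the sources used here, so reads in those bases cannot be assigned to one gene. The processed pseudogene Hspd1-ps3, a near copy of Hspd1, held at most 2.46% of the Hspd1 count of a heart. The pair shares a promoter, and it carries a block of heat shock elements, the binding motif of the heat shock factors. In the RefSeq promoter windows (250 bases before to 50 after a start, GRCm38.p6, 8 of the 10 members matched), GAANNTTC was found in 7.86% and TTCNNGAA in 8.51% of 32817 windows. Both motifs read the same on either strand. Both were present in the window of Hspe1 and in that of the Hspd1 start at 55127091, and TTCNNGAA alone in that of Clpp. The window of the other Hspd1 start, at 55127402, held neither. In the Hspe1 window, 3 overlapping matches spanned 18 bases, from base -89 to base -72 counted from the start. They are shown as a description. Neither motif was found in the windows of Lonp1, Trap1, Clpx, Spg7 or Yme1l1. The stretch, matched to chr1:55127211-55127240 of GRCm39 on the plus strand, is printed 5′ to 3′ with the matches in capitals.
Hspd1-Hspe1: cggtccgTTCTAGAACCTTCCGGAAggccc

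The Lonp1 window held neither TTGCATCA, the core of an amino acid response element to which Atf4 and its partners bind (0.896% of all windows on either strand), nor TGATGNAA, a composite C/EBP-ATF core (3.97%), and no other member's window held them. It held TGACGT, the core of the cyclic AMP response element that many ATF and CREB factors recognize, as did that of Trap1. This motif occurs in 7.51% of all windows on either strand and was added after the Lonp1 window had been read. The match lies from base -7 to base -2 before the RefSeq start. It is shown in capitals in chr17:56933904-56933933 of GRCm39, read 5′ to 3′ on the minus strand. A match of letters is a description and no evidence of binding.
Lonp1: cgcaaacggggggcgagcagagaTGACGTa

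Of the other motifs searched on both strands, the NRF1 core GCGCATGC (2.71% of windows) was found for Clpx. The CCAAT box (37.4%) was found for Clpx, Hspd1 and Yme1l1, and the GC box GGGCGG (35.6%) for 7 of the 8 matched members, all but Clpp. For Hspd1 the CCAAT match lay in the window of the start at 55127402 only.

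Neither subunit of the other matrix protease passed the test. Clpp, the proteolytic subunit of ClpXP (ENSMUSG00000002660, plus strand of chromosome 17, 57297305 to 57303188), was at 34.5 to 43.0 CPM in Ctrl (median 40.5) and 29.5 to 46.1 CPM in hMut (median 39.5). Its log2 fold change was -0.03 (95% interval -0.20 to 0.13, adjusted p = 0.826, edgeR). Clpx (ENSMUSG00000015357, plus strand of chromosome 9, 65201542 to 65237940), which unfolds substrates and feeds them to Clpp, was at 103.6 to 123.4 CPM in Ctrl (median 114.5) and 94.0 to 122.9 CPM in hMut (median 117.8). Its log2 fold change was -0.02 (95% interval -0.14 to 0.09, adjusted p = 0.811, edgeR). For both genes the hMut range reached further down than the Ctrl range, through replicates 6 and 9.

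The inner membrane proteases did not pass the test either. Afg3l2 and Spg7 (paraplegin) are subunits of the m-AAA protease, which degrades unassembled membrane subunits and matures a mitochondrial ribosomal protein. Afg3l2 (ENSMUSG00000024527, minus strand of chromosome 18, 67537834 to 67582242) was at 200 to 239.6 CPM in Ctrl (median 211.1) and 200.6 to 243.2 CPM in hMut (median 219.1), with a log2 fold change of 0.04 (95% interval -0.06 to 0.13, adjusted p = 0.655, edgeR). Spg7 (ENSMUSG00000000738, plus strand of chromosome 8, 123789681 to 123824499) was at 113.7 to 135.7 CPM in Ctrl (median 122.1) and 87.8 to 130.1 CPM in hMut (median 114.4), where 4 hearts were below every Ctrl heart. Its log2 fold change was -0.14 (95% interval -0.29 to 0.00, adjusted p = 0.202, edgeR). Yme1l1 is the i-AAA protease, which cleaves the fusion factor Opa1 and degrades proteins of the intermembrane space. Yme1l1 (ENSMUSG00000026775, plus strand of chromosome 2, 23046381 to 23089272) was at 95.3 to 100.6 CPM in Ctrl (median 97.3) and 80.2 to 101 CPM in hMut (median 94.1), with a log2 fold change of -0.07 (95% interval -0.16 to 0.02, adjusted p = 0.308, edgeR). Yme1l1 had the smallest coefficient of variation of the members in Ctrl, 2.09%, against 7.27% in hMut, and 5 hMut hearts were below every Ctrl heart.

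**Figure D2:**
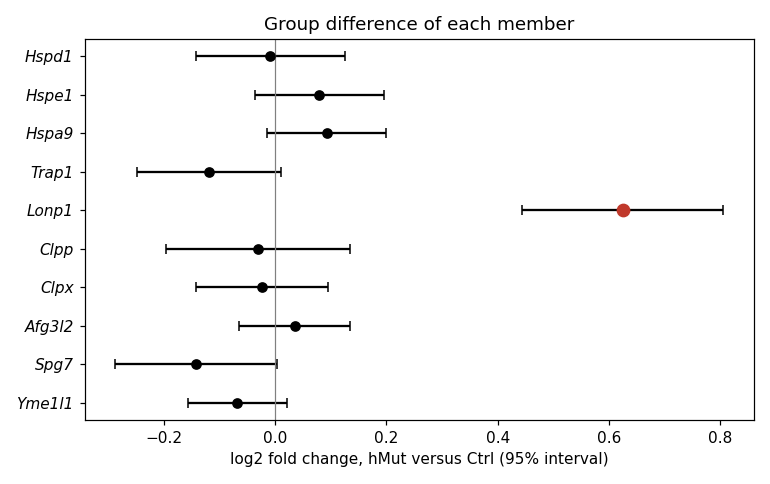
The log2 fold change of each member between hMut and Ctrl hearts (points) with its 95% interval (bars) from edgeR's quasi-likelihood fit, with the member past the threshold in red. Lonp1 is at 0.62 with an interval from 0.44 to 0.81, and the intervals of the 9 other members lie between -0.29 and 0.20.

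The intervals of the 9 members that did not pass reached no lower than -0.29 and no higher than 0.20, so that in none of them does the interval include the lower bound for Lonp1, 0.44. Low values among them came mainly from 2 hMut hearts. In hMut replicate 6, 6 of the 9 were below every Ctrl heart (Hspd1, Hspe1, Clpp, Clpx, Spg7 and Yme1l1). In hMut replicate 9 it was also 6, mostly the same genes (Hspd1, Trap1, Clpp, Clpx, Spg7 and Yme1l1). In each of the 7 other hMut hearts this held for 0 to 2 of the 9. Lonp1 was at 276.5 CPM in hMut replicate 6 and at 297.3 CPM in hMut replicate 9, both at or above the median of its group. These are the hearts with the most fibroblast and myeloid and the least cardiomyocyte marker RNA given above. Without both, Lonp1 remained called, and 0 of the 9 others were. Ctrl replicate 3 was the lowest of the Ctrl hearts for Lonp1 and 5 of the 9 others, and it also had the lowest sum of cardiomyocyte markers (38457 CPM) and the highest mtDNA-encoded share (30.9%) in its group.

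Ratios between partners compare members within each heart, where differences in library scaling cancel. A log2 ratio was tested for 5 pairs by exact permutation (two-sided, 24310 splits into 9 and 8 hearts), with adjustment over the 5. Lonp1 to Clpp, the 2 ATP-dependent matrix proteases, was at 2.10 ± 0.11 in Ctrl (SD, n = 8) and 2.76 ± 0.33 in hMut (SD, n = 9). The difference was 0.65 (exact permutation p = 0.000123, adjusted p = 0.000617), and 8 of 9 hMut hearts were above every Ctrl heart. It uses the same Lonp1 values as the test above, with log2 fold changes of 0.62 for Lonp1 and -0.03 for Clpp. It is therefore not independent of the call of Lonp1. Afg3l2 to Spg7, both m-AAA subunits, was at 0.82 ± 0.09 in Ctrl and 1.0 ± 0.18 in hMut, a difference of 0.18 (exact permutation p = 0.0192, adjusted p = 0.0479). Of the hMut hearts, 5 lay above every Ctrl heart and 1, replicate 8, lay below every Ctrl heart. This call was close to the threshold and ended on leaving out any of 12 single hearts, namely Ctrl replicates 1, 2, 3, 5, 6, 7 and 8 and hMut replicates 1, 3, 5, 6 and 9, with adjusted p up to 0.0878. Leaving out hMut replicates 6 and 9 together gave 0.13 (adjusted p = 0.110).

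The other 3 ratios did not pass with all hearts included. Hspd1 to Hspe1, chamber to lid, was at 2.42 ± 0.09 in Ctrl and 2.33 ± 0.08 in hMut (difference -0.09, exact permutation p = 0.0520, adjusted p = 0.0649), and it passed without hMut replicate 4 (-0.10, adjusted p = 0.0471, exact permutation test). Yme1l1 to Afg3l2, i-AAA to m-AAA, was at -1.14 ± 0.09 and -1.24 ± 0.10 (difference -0.11, exact permutation p = 0.0320, adjusted p = 0.0533), and it passed without Ctrl replicate 4 (-0.13, adjusted p = 0.00874, exact permutation test) or without hMut replicate 8 (-0.12, adjusted p = 0.0254). Clpx to Clpp was at 1.52 ± 0.11 and 1.54 ± 0.12 (difference 0.01, exact permutation p = 0.818, adjusted p = 0.818). Since Lonp1 had passed, its log2 ratio to each of the other members was also taken, as a description chosen with its values known. The ratio was higher in hMut by 0.52 (to Hspa9) to 0.76 (to Spg7). All 9 hMut hearts lay above every Ctrl heart in the ratios to Hspa9, Trap1 and Yme1l1, 8 of 9 in those to Clpp, Clpx, Afg3l2 and Spg7, and 7 of 9 in those to Hspd1 and Hspe1. The ratio of Lonp1 to Trap1 was nearly constant in Ctrl, at 0.14 ± 0.03 (SD, n = 8), and was 0.88 ± 0.32 in hMut (SD, n = 9).

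**Figure D3:**
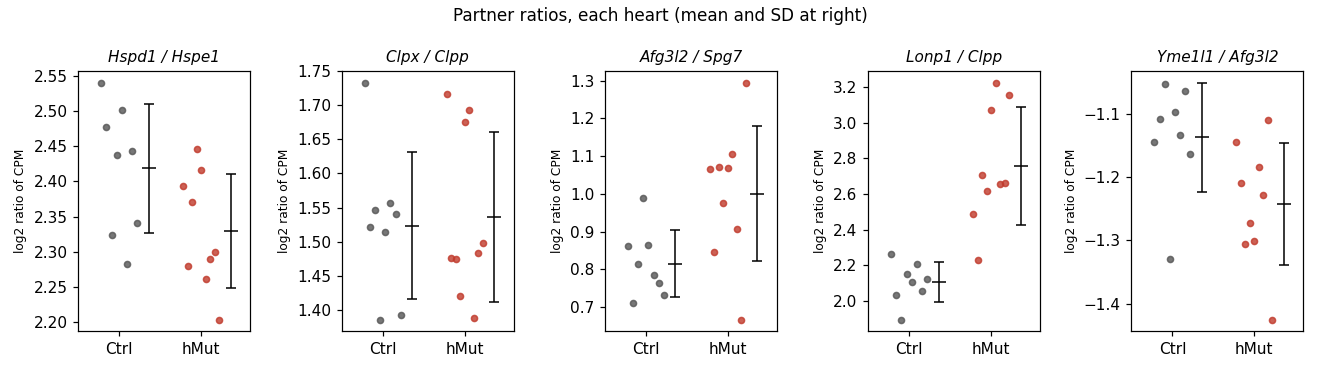
The log2 ratio of CPM of 5 partner pairs in each Ctrl (grey) and hMut (red) heart, with group mean and SD at the right of the points. The y axes differ in range and do not start at 0. The Lonp1 to Clpp ratio averages 2.10 in Ctrl and 2.76 in hMut, whereas the Clpx to Clpp ratio averages 1.52 and 1.54.

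Of 7 regulators of the mitochondrial unfolded protein response, 3 rose and 0 fell, beside 4.62% of all tested genes called in either direction. Atf5, which can enter mitochondria or the nucleus, was at 39.5 to 52.7 CPM in Ctrl (median 45.0) and 70.0 to 174.3 CPM in hMut (median 140.8), a log2 fold change of 1.46 ± 0.14 (SE, adjusted p = 6.25e-06, edgeR). Atf4, the transcription factor translated when eIF2alpha is phosphorylated, was at 46.5 to 59.4 CPM in Ctrl (median 52.3) and 66.7 to 179.2 CPM in hMut (median 94.1), a log2 fold change of 1.002 ± 0.16 (SE, adjusted p = 0.00147, edgeR). For both genes every hMut heart was above every Ctrl heart, as for 0.543% of tested genes. The symbol Ddit3 (Chop) has 2 entries, of which ENSMUSG00000025408 was used and the other is not described here. Ddit3 was at 12.4 to 16.9 CPM in Ctrl (median 14.9) and 15.6 to 80.3 CPM in hMut (median 23.7), a log2 fold change of 1.23 ± 0.28 (SE, adjusted p = 0.0181, edgeR). Its highest values were in hMut replicates 6 (80.3 CPM) and 9 (60.7 CPM), the hearts that stood apart in cell markers, and the next was at 37.3 CPM. Without both, its log2 fold change was 0.72 (adjusted p = 0.0115, edgeR), with 0.82 for Atf4 (adjusted p = 0.00108) and 1.35 for Atf5 (adjusted p = 5.38e-06), a setting chosen for them after their values were seen. The 4 that did not pass, named here after their values were seen, Cebpb, Jun, Hsf1 and Ubl5, had log2 fold changes from -0.15 (Jun) to 0.16 (Cebpb).

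The hMut hearts that were lowest in Lonp1, replicates 1 and 2, were also the lowest in Atf4 (71.5 and 66.7 CPM), Atf5 (95.8 and 70.0 CPM) and Ddit3 (15.6 and 17.5 CPM). Correlations of Lonp1 with these regulators were computed on log2 CPM within each group, 6 in all, and were chosen after these genes had been seen to pass. Within the 9 hMut hearts, Lonp1 rose with Atf4 (r = 0.82, exact permutation p = 0.00555, adjusted p = 0.0166; rho = 0.87, exact permutation p = 0.00451, adjusted p = 0.0271). Without the 2 hearts farthest from the median of Atf4, r was 0.88. With Atf5 the r of 0.86 (exact permutation p = 0.00302, adjusted p = 0.0166) stood beside a rho of 0.72 (exact permutation p = 0.0369, adjusted p = 0.0649), and it was r = 0.61 without the 2 farthest hearts, which were replicates 1 and 2. With Ddit3 the r of 0.66 (exact permutation p = 0.0511, adjusted p = 0.102) stood beside a rho of 0.70 (exact permutation p = 0.0433, adjusted p = 0.0649), with an r of 0.87 without the 2 farthest. Leaving replicates 1 and 2 out gave an r of 0.69 for Atf4 and 0.33 for Ddit3, so these 2 hearts carry a large part of the relations. Within the 8 Ctrl hearts, the r values were 0.17 with Atf4 (exact permutation p = 0.675, adjusted p = 0.675), -0.40 with Atf5 (exact permutation p = 0.354, adjusted p = 0.424) and 0.57 with Ddit3 (exact permutation p = 0.139, adjusted p = 0.208). The rho values there were 0.07 (exact permutation p = 0.882, adjusted p = 0.882), -0.69 (exact permutation p = 0.0694, adjusted p = 0.0833) and 0.81 (exact permutation p = 0.0218, adjusted p = 0.0649). Without the 2 farthest Ctrl hearts r was -0.05, -0.51 and 0.67. Whether the relation differs between the groups was not tested.

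**Figure D4:**
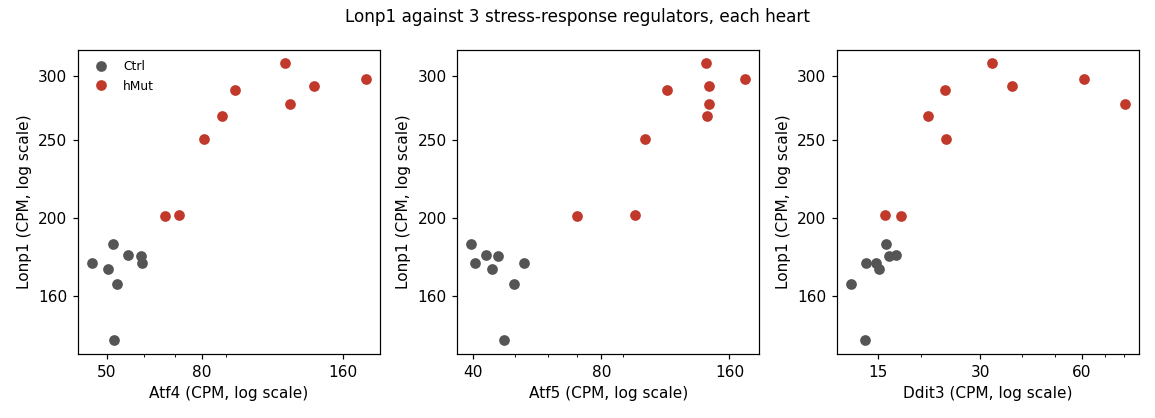
Lonp1 against Atf4, Atf5 and Ddit3 in each heart (CPM, both axes logarithmic), with Ctrl in grey and hMut in red. In hMut, Lonp1 spans 200.9 to 310.9 CPM and the hearts at its lower end are at the lower end of Atf4 (66.7 and 71.5 CPM) as well.

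The genes most like Lonp1 from heart to heart were sought over all 17 hearts after the group means had been subtracted from log2 CPM. The 5 highest correlations were with Tex264, a receptor for autophagy of the endoplasmic reticulum (r = 0.89), Pmm1, a phosphomannomutase (r = 0.88), Shmt2, which makes one-carbon units from serine in mitochondria (r = 0.88), Lars, the cytosolic leucyl-tRNA synthetase (r = 0.88), and Dda1, a component of DDB1 ubiquitin ligases (r = 0.87). Pmm1 (log2 fold change 1.12, adjusted p = 0.000584, edgeR), Lars (0.41, adjusted p = 0.00133), Shmt2 (0.31, adjusted p = 0.00630) and Tex264 (0.28, adjusted p = 0.0391) were also higher in hMut. Dda1 was at 0.13 (adjusted p = 0.143, edgeR). No other member was among these genes, and the 17 points share the tissue and the spread of hMut hearts, so the correlations are given as a description.

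Other mitochondrial quality control genes were counted in the same way. Of 11 other mitochondrial chaperones and cofactors, 0 passed by edgeR and 2 had an unadjusted p under 0.05, and their median log2 fold change was 0.01 (range -0.16 to 0.20). The smallest p belonged to Hscb, a co-chaperone of iron-sulfur cluster assembly (0.16, adjusted p = 0.129, edgeR). Of 20 other mitochondrial proteases and scaffolds, 0 passed by edgeR and 2 had an unadjusted p under 0.05, with a median of -0.03 (range -0.19 to 0.16). Here the smallest p belonged to Immp1l, a subunit of the inner membrane peptidase (-0.19, adjusted p = 0.1499, edgeR). The unadjusted counts are to be read beside the rank given above, 4399th of 16195 genes at an unadjusted p of 0.0548 (Spg7, edgeR).

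Chaperones of other compartments were counted for comparison. Of 14 chaperones and folding enzymes of the endoplasmic reticulum, 0 passed and 2 had an unadjusted p under 0.05, with a median log2 fold change of 0.06, and the smallest p belonged to the lectin chaperone Canx (-0.13, adjusted p = 0.0882, edgeR). Of 14 cytosolic heat shock proteins, 2 were higher, 0 lower and 12 did not pass, with a median of 0.12. They were Hsp90aa1, the inducible cytosolic Hsp90 (147.4 ± 25.3 CPM in Ctrl, n = 8, and 216.6 ± 46.6 CPM in hMut, n = 9, log2 fold change 0.56, adjusted p = 0.0166, edgeR), and Hspb1, the small heat shock protein Hsp27 (112 ± 12.3 and 146.4 ± 18.6 CPM, 0.39, adjusted p = 0.00973). Of the 8 subunits of the cytosolic chaperonin TRiC, 4 were higher and 0 lower, with a median of 0.10. Cct3 (0.18, adjusted p = 0.0264, edgeR), Cct2 (0.16, adjusted p = 0.0375), Cct5 (0.16, adjusted p = 0.0210) and Cct6a (0.14, adjusted p = 0.0150) each changed by less than Lonp1. Against the counts of called genes, the share of all tested genes called was 4.62%, as above. It is not the background for the unadjusted count, as far more genes pass without adjustment.

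**Figure D5:**
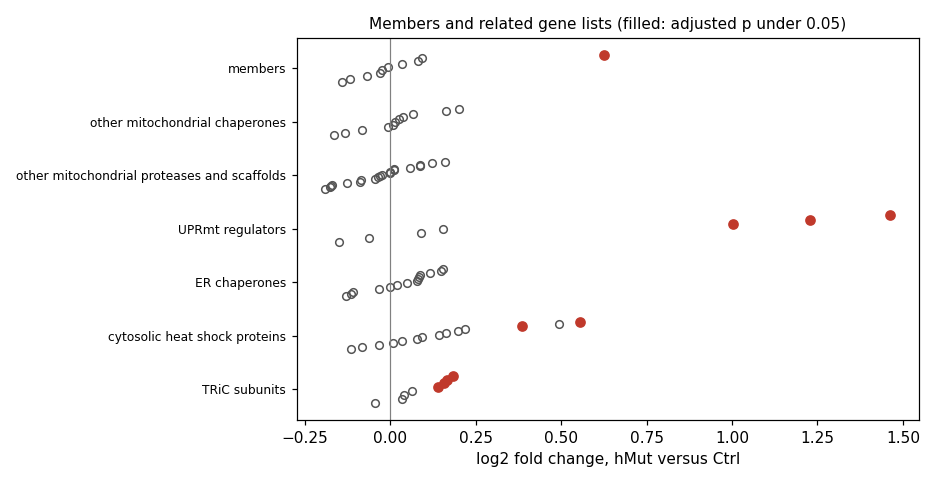
The log2 fold change of each tested gene in the member list and in 6 related lists, with filled red points past an adjusted p of 0.05 and open points not past it. The 3 called regulators lie between 1.002 and 1.46, Lonp1 at 0.62, and 0 of the 31 genes in the lists of other mitochondrial chaperones, proteases and scaffolds are filled.

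Finally, the members were set against the mtDNA-encoded share of counts within each group, on CPM computed over nuclear genes alone, as 20 correlations. None passed an adjusted p of 0.05 by r or by rho (lowest adjusted p 0.342 and 0.726). By size of r, the largest in each group were for Lonp1 in Ctrl hearts (r = -0.88, exact permutation p = 0.0274, adjusted p = 0.342; rho = -0.55, exact permutation p = 0.171, adjusted p = 0.726) and for Hspe1 in hMut hearts (r = 0.71, exact permutation p = 0.0342, adjusted p = 0.342; rho = 0.52, exact permutation p = 0.162, adjusted p = 0.726). Without the 2 hearts farthest from the median share, r fell to -0.29 for Lonp1 in Ctrl and was 0.39 for Hspe1 in hMut, so both rested on those hearts. Trap1 in Ctrl hearts was between them in size (r = -0.80, exact permutation p = 0.0546, adjusted p = 0.364; rho = -0.40, exact permutation p = 0.327, adjusted p = 0.726), and its r was -0.07 without the same 2 Ctrl hearts. For Lonp1 in hMut hearts the value of r, -0.54 (exact permutation p = 0.135, adjusted p = 0.449), became -0.52 without the 2 farthest.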

How the data were processed

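The authors selected poly(A) RNA, sequenced it on an Illumina NovaSeq X Plus, trimmed and filtered it with fastp, and used HISAT2 (2.2.1, GRCm39) for alignment and featureCounts (2.0.6) for counting. The deposited table holds unnormalized gene counts for 17 libraries and also gives gene lengths in bases, used here for values per kilobase. Groups came from the depositors' labels. Whether replicates are separate mice is not stated per library, so p-values measure the spread between these samples.

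From the counts, genes were filtered with filterByExpr, normalized by TMM and tested with edgeR (4.0.16, R 4.3.3) by its quasi-likelihood test with genotype as the only term over all 17 hearts. Each standard error is the absolute log2 fold change over the root of F. Log2 CPM used a prior count of 2. Ratios and correlations used exact permutation tests (scipy 1.17.1, numpy 2.4.6, Python 3.11.15, pandas 2.3.3, matplotlib 3.10.9). The tests were tried on simulated data. A first trial of the edgeR step called slightly fewer of the genes with the larger known fold changes than required, and the requirement was then limited to genes with a mean of at least 10 CPM. Promoter windows were RefSeq's, placed in GRCm39 by exact match. The members, lists and tests were chosen with earlier results of these data known. Named were all members, up to 5 called genes of a list by smallest p (or the gene with the smallest p where none was called), and the 5 genes most correlated with the member of smallest p. The uncalled regulators Cebpb, Jun, Hsf1 and Ubl5 fall outside this rule and were named after their values were seen. Alternatives were DESeq2 (1.42.0), limma-voom (3.58.1), RLE and upper-quartile normalization, nuclear genes only, other count filters, sex read from sex-linked counts as a term, a replicate block, and hearts left out. Depth was 32915159 to 46486964 counts per heart, and every member had at least 1195 counts in each. Counting error was not separated from the spread between hearts. It can be a large part of the smallest spreads, such as those of Yme1l1 and of the Lonp1 to Trap1 ratio in Ctrl. The mtDNA mutation burden of each heart was not used here, and 2 genes, 1 of them on a list, are not reported here.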

Additional observations from a re-analysis of the deposited data

Results flagged for a closer look

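In 30 groups of values (10 members and 5 ratios, in Ctrl and in hMut), the gap between an extreme heart and the next was compared with Dixon's limit, which chance passes in about 5% of groups. There were 2 such hearts. Lonp1 in Ctrl replicate 3 was at 140.9 CPM, and the next lowest Ctrl heart was at 165.5 CPM. The log2 ratio of Yme1l1 to Afg3l2 in Ctrl replicate 4 was -1.33, and without this heart the difference in that ratio between the groups was -0.13, past the threshold (adjusted p = 0.00874, exact permutation test).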

How the results depend on the processing

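Lonp1 was called in all 27 alternatives fitted across all genes, with log2 fold changes from 0.59 to 0.67 and adjusted p from 1.05e-09 to 0.00909. The number of members called was 1 in 26 of them and 2 under limma-voom, which added Hspa9. The number of genes called was 749, and it was 1524 with DESeq2, 2081 with limma-voom, 463 with no low-count filter, 195 with the replicate block, 431 without hMut replicates 6 and 9, and 395 to 1792 on leaving out 1 heart, the highest without hMut replicate 2. Log2 fold changes near 0 changed sign. Hspd1 gave 0.0206 (limma-voom), 0.0121 (sex), 0.00474 (replicate block) and 0.05 (without replicates 6 and 9). Clpp gave 0.0258 (limma-voom) and 0.0488 (without both), and Clpx 0.0187 (limma-voom), 0.00409 (block) and 0.0410 (without both). On leaving out 1 heart they ranged from -0.0311 to 0.0262 (Hspd1), -0.0631 to 0.0131 (Clpp) and -0.0453 to 0.00625 (Clpx), and the Clpx to Clpp ratio from -0.00977 to 0.0428 (-0.00415 without both). Of the ratios, 2 passed, 1 with the replicate block (Afg3l2 to Spg7 lost at 0.15, adjusted p = 0.0781), 1 without both hearts, and 1 to 3 on leaving out 1 heart. Correlations with the mtDNA-encoded share passed in 0 cases throughout, and 12 changed sign without the 2 farthest hearts: in hMut Hspa9 (-0.30), Trap1 (-0.0206), Clpp (-0.0100), Clpx (-0.13) and Afg3l2 (-0.30), and in Ctrl Hspd1 (0.49), Hspa9 (0.62), Clpp (0.24), Clpx (0.00108), Afg3l2 (0.26), Spg7 (0.0246) and Yme1l1 (0.32). The causes were not tested. The labels state no pairing of mice by replicate number. Same-numbered hearts correlated at -0.225 to 0.339 in their deviations from group means, and Ctrl replicate 8 was closest to hMut replicate 8 (0.339). Such correlations cannot show whether mice were paired.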
